A study of Zea mays with 8 samples.

Results

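The 100 genes described here had higher transcript levels under drought in the basal leaf meristem of maize and a small average difference in the ovary of plants given the same treatment. They were picked from measured values. Of 23586 genes present in the tables of both tissues, 20252 had a mean of at least 1 FPKM in each table (a fragment count scaled by gene length and by library size) and 19688 of these were above 0 in all 8 libraries. The drought difference of a gene is the mean of log2(FPKM + 1) in the drought libraries minus that in the control libraries of the same tissue. In the ovary it lay between -0.3 and 0.3 for 5254 genes, 26.7% of the 19688. Among these, 1027 genes (19.5%) had both leaf drought libraries above both leaf controls, and the 100 with the highest leaf difference were kept. Because the rule used both drought contrasts, the members' own differences are given as a description. Counts of members called by a test stand only beside the share of all genes called, and nothing is read from them.

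The study sequenced polyadenylated RNA of the inbred line B73, grown in a greenhouse to silk emergence. Plants of the control groups were well watered. For the drought groups water was withheld for 2 to 3 days, after which the ears were pollinated by hand. Both tissues were taken 24 hours later, the leaf meristem from the base of the 3 youngest leaves, and each of the 4 groups has 2 libraries. The labels call the libraries biological replicates, while the series text counts 1 biological replicate per condition, and nothing says that they came from separate plants. The spread between replicates may therefore be technical in part. Control ovaries are described as ovaries or cob and drought ovaries as ovary tissue, and the share of cob in either was not analysed here.

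FPKM summed to between 783683 and 843595 in the leaf libraries. In the ovary the sums were 661161 to 710996 in 3 libraries and 9212839 in control 2, or 733453 there without its 2 largest genes. Read counts are not given, so the depth behind each value is unknown. Floral MADS-box genes summed to at least 2875 FPKM in each ovary library and at most 348 FPKM in each leaf library. Photosynthesis genes summed to at least 24319 FPKM in each leaf library and at most 2256 FPKM in each ovary library. KNOX genes, which mark shoot meristems, did not set the leaf samples apart. The 5 of 9 listed KNOX genes with a leaf value summed to 44.9 to 53.5 FPKM in the leaf libraries, and all 9 summed to 82.5 to 172 FPKM in the ovary libraries. The other 4, KN-1 among them, had no leaf value to analyse. In whole-tissue RNA, fewer cells of a type and less RNA per cell cannot be told apart.

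Jasmonate is a lipid-derived hormone of wounding, defence and stress responses. Allene oxide synthase makes its precursor from a lipoxygenase product. In the absence of the hormone, JAZ proteins, a branch of the TIFY family, hold MYC2-type transcription factors in check. When the hormone is perceived the JAZ proteins are degraded, and genes under MYC2, among them the JAZ genes themselves, are transcribed.

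Genes listed for this pathway were the largest group of named members, while most of the 100 have no gene name. Of 17 members with a gene name (16 distinct names), 6 were on a list of jasmonate gene symbols. They were 4 TIFY genes, the MYC2 gene MYC2a and the allene oxide synthase gene aos1. TIFY genes were listed by symbol, and which of them encode JAZ proteins was not analysed here. The share of jasmonate genes among all named genes is not given here, so the count is not read as an excess. TIFY9, TIFY28 and TIFY10 ranked 2, 4 and 6 among the 100.

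TIFY9 (GRMZM2G145412, also ZIM18) was at 15.3 and 10.7 FPKM in the leaf controls, against 142 and 256 FPKM in the droughted leaves. TIFY28 (GRMZM2G036351, also ZIM4) was at 26.8 and 13.9 FPKM in the leaf controls, against 178 and 308 FPKM in the droughted leaves. TIFY10 (GRMZM2G145458) was at 10.8 and 7.90 FPKM in the leaf controls, against 60.1 and 103 FPKM in the droughted leaves. In all 3 genes each drought library stood far above both controls, and drought 2 was the higher of the drought libraries. The leaf log2 differences were 3.80 ± 0.35 for TIFY9, 3.53 ± 0.42 for TIFY28 and 2.97 ± 0.31 for TIFY10 (standard error of the limma fit, n = 2 libraries per group).

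The ovary values of these 3 genes were low and uneven between control replicates. TIFY9 was at 2.19 and 0.182 FPKM in the ovary controls, against 0.75 and 0.934 FPKM in the droughted ovaries. TIFY28 was at 4.16 and 0.321 FPKM in the ovary controls, against 2.07 and 2.02 FPKM in the droughted ovaries. For both genes the controls lay on either side of the drought libraries, 12.1-fold apart for TIFY9 and 13.0-fold for TIFY28, so their small ovary differences of -0.08 and 0.22 are averages of controls that disagreed. Without ovary control 1 the ovary difference was 0.64 for TIFY9 and 1.21 for TIFY28. Without ovary control 2 it was -0.80 and -0.76. TIFY10 was at 7.46 and 3.01 FPKM in the ovary controls, against 5.52 and 3.82 FPKM in the droughted ovaries, with the same arrangement and an ovary difference of -0.06. It was 0.48 without ovary control 1 and -0.59 without control 2.

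The other 3 jasmonate members were abundant in both tissues. TIFY27 (GRMZM2G089736) was at 122 and 58.5 FPKM in the leaf controls, against 214 and 233 FPKM in the droughted leaves. Its ovary values were 67.2 and 59.1 FPKM in the controls and 62.9 and 93.6 FPKM under drought. Its ovary groups overlapped. The leaf difference of TIFY27 was 1.39 ± 0.38, and 0.87 without leaf control 2.

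MYC2a (GRMZM2G001930, also myc7), the transcription factor that JAZ proteins repress, had the closest replicates of the 6. It was at 20.8 and 19.9 FPKM in the leaf controls, against 71.7 and 95.5 FPKM in the droughted leaves. In the ovary it was at 20.5 and 25 FPKM in the controls, against 23.1 and 21.7 FPKM in the droughted ovaries. The ovary libraries thus lay around the level of the leaf controls, and the drought leaves stood apart from the other 6 libraries. Its differences were 1.97 ± 0.18 in the leaf and -0.02 ± 0.17 in the ovary.

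The enzyme gene aos1 (GRMZM2G067225) was at 78.6 and 21.4 FPKM in the leaf controls, against 120 and 136 FPKM in the droughted leaves. Its ovary values were 125 and 176 FPKM in the controls and 130 and 173 FPKM under drought, so the ovary of either group was near the drought leaf. The leaf controls differed 3.67-fold, and the leaf difference of 1.61 ± 0.63 was 0.69 without control 2 and 2.52 without control 1.

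**Figure D1:**
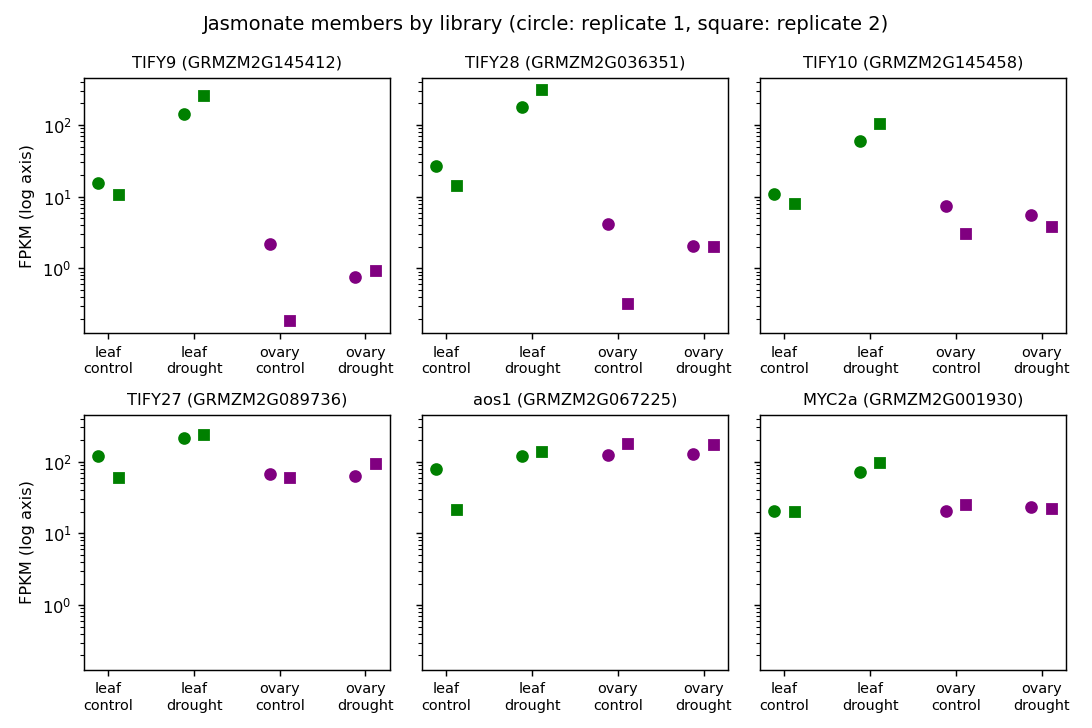
FPKM (log axis) of the 6 jasmonate members in each library, leaf in green and ovary in purple, circles for replicate 1 and squares for replicate 2. Both drought leaves lie above both control leaves in every panel, while ovary control 1 and control 2 of TIFY9 and TIFY28 lie on either side of the drought ovaries.

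The rest of the jasmonate list was read from the fit over all genes. A list here is a set of gene symbols, and a gene was called at a limma adjusted p under 0.05 (Benjamini-Hochberg over all genes of the table). Of 22418 genes tested in the leaf, 527 rose (2.35%) and 203 fell (0.906%). Of the 39 listed genes that are no members, 2 rose in the leaf and 0 fell, while 20 had a higher and 1 a lower level at an unadjusted limma p under 0.05. With the replicate number as a block, 19 of the 39 were higher at that threshold, where 2035 of 22418 genes were. No such share of all genes is given for the fit without the block. Nothing is therefore read from its unadjusted counts of list genes, here or below. Both drought libraries stood above both controls in 31 of the 39, beside 23.5% of all genes tested in the leaf. The list was chosen with earlier results of these data known, and some of its TIFY genes are neighbours. Counts of its genes are therefore a description. The median leaf log2 difference of the 39 was 0.87, beside -0.06 over all genes tested.

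TIFY20 (GRMZM2G173596) was at 17.5 and 9.11 FPKM in the leaf controls, against 124 and 212 FPKM in the droughted leaves, a log2 change of 3.58 ± 0.41 (limma adjusted p = 0.0281). TIFY4 (GRMZM2G445634) was at 165 and 131 FPKM in the leaf controls, against 471 and 657 FPKM in the droughted leaves, a log2 change of 1.91 ± 0.24 (limma adjusted p = 0.0351). Neither of these 2 calls was made without leaf control 2. They were also lost with either leaf drought library left out, as was every leaf call. With the replicate number as a block the adjusted p was 0.0748 for TIFY20 and 0.0961 for TIFY4.

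TIFY4 also rose in the ovary, from 22.3 and 7.70 FPKM to 56.2 and 60.4 FPKM, a log2 change of 2.06 ± 0.44 (limma adjusted p = 0.0111). This call was lost without either ovary drought library (adjusted p = 0.127 and 0.145). TIFY20 had no ovary value to analyse. Of 33 listed genes that are no members and were tested in the ovary, 7 rose and 11 fell, with a median of -0.01. The background there was 23.6% rising and 29.5% falling of 23770 genes.

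Of 17 TIFY genes outside the set, 16 had both leaf drought libraries above both controls, and 9 of 14 did so in the ovary, where this held for 37.8% of all genes tested and where 4 of the 14 rose and 1 fell. Of 11 lipoxygenases, enzymes that oxygenate fatty acids and of which some feed jasmonate synthesis, 9 had both leaf drought libraries above both controls, 0 were called by limma and 6 had a higher level at an unadjusted p under 0.05. In the ovary 2 of 10 lipoxygenases rose and 4 fell. Of 11 other enzyme genes of the list (symbols aos, aoc and opr), 6 had both leaf drought libraries above both controls. This counts opr1 and opr2 separately, although their leaf values were identical. Of the 11, 0 were called by limma and 3 had a higher level at an unadjusted p under 0.05. In the ovary 1 of 9 rose and 6 fell. The difference between these classes was not tested. Over all genes tested, both leaf drought libraries stood above both controls in 23.5%, and limma called 2.35% rising and 0.906% falling there. Of all ovary genes tested, 23.6% rose and 29.5% fell.

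TIFY9 and TIFY10 are neighbours, with 0 protein-coding genes between them in the RefSeq annotation of assembly Zm-B73-REFERENCE-NAM-5.0. TIFY28 has TIFY29 beside it in the same way. TIFY29 (GRMZM2G036288) was at 0.497 and 0.0643 FPKM in the leaf controls, against 2.03 and 6.46 FPKM in the droughted leaves, with a limma adjusted p of 0.148. The genes aos1 and Hb, the haemoglobin gene described with the members of single roles, are adjacent as well. Whether reads are shared between such neighbours was not tested.

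The highest leaf differences outside the jasmonate genes belonged to members with no gene name. GRMZM2G301089, the first of the 100, was at 6.40 and 4.55 FPKM in the leaf controls, against 75.1 and 114 FPKM in the droughted leaves. Its ovary values were 3.52 and 3.11 FPKM in the controls and 3.43 and 4.96 FPKM under drought. The drought leaves were thus the only libraries above 7 FPKM, and the log2 differences were 3.87 ± 0.27 in the leaf and 0.25 ± 0.22 in the ovary.

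GRMZM2G049229 was at 5.51 and 3.68 FPKM in the leaf controls, at 56.2 and 83.0 FPKM in the drought leaves and at 4.54 to 6.62 FPKM in the ovary. GRMZM2G462118 was at 1.40 and 1.44 FPKM in the leaf controls, at 13.8 and 17.9 FPKM in the drought leaves and at 1.2 to 1.61 FPKM in the ovary. Both therefore had ovary levels near those of the watered leaf, with leaf differences of 3.65 ± 0.27 and 2.79 ± 0.17. GRMZM2G112284 differed from these in that its ovary values, 7.10 to 8.38 FPKM, lay between 4.75 and 3.00 FPKM in the leaf controls and 29.9 and 37.9 FPKM in the drought leaves.

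GRMZM2G413006 and GRMZM2G448883 had ovary levels that overlapped those of the drought leaf. GRMZM2G413006 was at 6.96 and 1.08 FPKM in the leaf controls, at 45.3 and 27.2 FPKM in the drought leaves and at 22.6 to 31.4 FPKM in the ovary. GRMZM2G448883 was at 2.41 and 0.886 FPKM in the leaf controls, at 19.8 and 11.1 FPKM in the drought leaves and at 14.9 to 20.2 FPKM in the ovary. In both genes leaf control 1 was above control 2, 6.46-fold in the former and 2.72-fold in the latter. The leaf difference of GRMZM2G413006 was 3.15 ± 0.70. GRMZM2G003738, the remaining member of the first 10, was at 2.66 and 1.22 FPKM in the leaf controls, at 21.9 and 19.9 FPKM in the drought leaves and at 1.32 to 4.14 FPKM in the ovary.

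**Figure D2:**
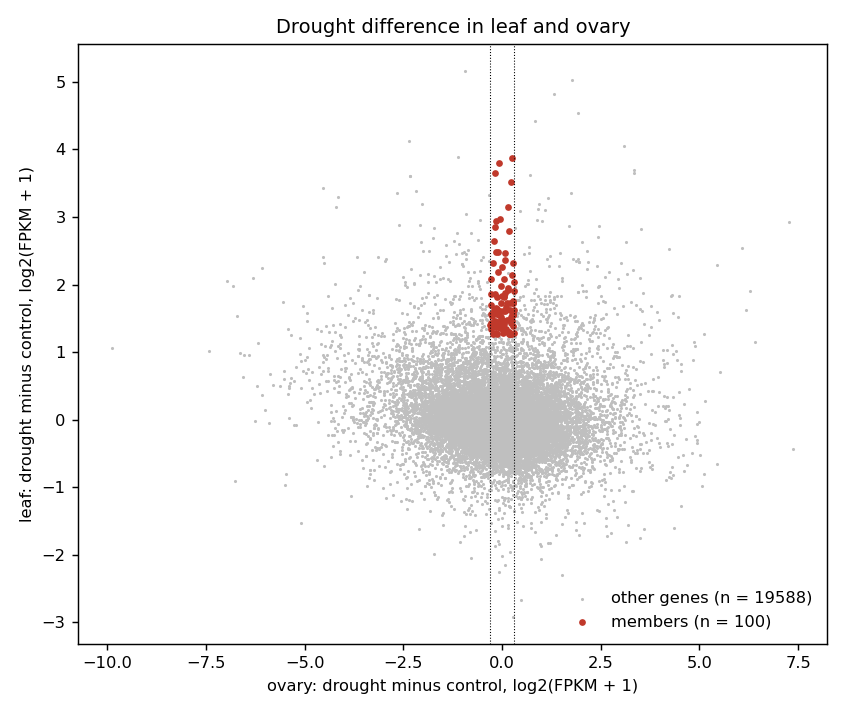
Drought minus control in the leaf (y axis) against the ovary (x axis), both on the log2(FPKM + 1) scale, for the 19688 genes above 0 in all 8 libraries, members in red. The dotted lines mark the ovary limits of -0.3 and 0.3, and the members fill the upper end of that band from 1.26 to 3.87 in the leaf, as the rule requires.

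Among members with other transcription and signalling roles, bHLH36 (GRMZM2G008691), a transcription factor gene, was at 0.945 and 0.370 FPKM in the leaf controls, against 3.95 and 6.68 FPKM in the droughted leaves. Its ovary values ran from 6.57 to 10.4 FPKM, level with or above the drought leaf. The leaf difference was 1.92 ± 0.31. Of 30 other bHLH genes tested in the leaf, 2 rose and 1 fell, with a median of 0.05. They were bHLH108 (GRMZM2G119823, 5.63 ± 0.38, limma adjusted p = 0.00723) and bHLH116 (GRMZM2G042895, 5.31 ± 0.40, limma adjusted p = 0.00972). Neither bHLH108 nor bHLH116 had an ovary value to analyse. Both calls were lost with either leaf drought library left out, a setting in which every leaf call was lost. The gene that fell was bHLH159 (GRMZM2G004356, -1.39 ± 0.16, limma adjusted p = 0.0278), named after its value was seen. In the ovary 9 of 27 rose and 7 fell, beside 23.6% and 29.5% of all genes tested there.

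CPK39, a calcium-dependent protein kinase gene, is present as 2 identifiers of 1 RefSeq gene, GRMZM2G053868 and GRMZM2G157068, whose values agreed within 1.004-fold. The first was at 9.99 and 9.44 FPKM in the leaf controls, against 31.5 and 29.0 FPKM in the droughted leaves. In the ovary it was at 5.36 and 5.21 FPKM in the controls, against 6.44 and 6.81 FPKM in the droughted ovaries. Replicates were close in all 4 groups, and the ovary drought libraries also stood above their controls, with differences of 1.54 ± 0.12 in the leaf and 0.28 ± 0.17 in the ovary. The symbols of the calcium signalling list also matched 2 cinnamoyl-CoA reductase genes, which are left out of the counts here. Of 16 other listed genes tested in the leaf, 0 were called by limma, with 4 higher and 2 lower at an unadjusted p under 0.05. In the ovary 5 of 14 rose and 3 fell, beside 23.6% and 29.5% of all genes tested there.

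The gene crr1 (GRMZM2G040736, also RR11), a cytokinin response regulator, was at 7.10 and 11.1 FPKM in the leaf controls, against 13.8 and 42.5 FPKM in the droughted leaves. The drought libraries were far apart, and the leaf difference of 1.36 ± 0.57 was 0.59 without drought 2 and 2.14 without drought 1. Its ovary values ran from 2.51 to 5.15 FPKM, below every leaf library. Of 25 other gibberellin and cytokinin genes tested in the leaf, 0 were called by limma, with 3 higher and 6 lower at an unadjusted p under 0.05. In the ovary 11 of 24 rose and 3 fell, beside 23.6% and 29.5% of all genes tested there.

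The heat shock gene hsp101 (GRMZM2G360681), whose protein dissolves aggregates after heat stress, was at 4.20 and 2.26 FPKM in the leaf controls, against 6.54 and 12.2 FPKM in the droughted leaves. In the ovary it was at 22.3 and 31.2 FPKM in the controls, against 37.7 and 26.4 FPKM in the droughted ovaries, above every leaf library. Its leaf difference of 1.28 ± 0.38 was near the lower end of the set. Of 22 other heat stress factor and heat shock genes tested in the leaf, 0 rose and 1 fell, with 4 higher and 2 lower at an unadjusted limma p under 0.05. The one that fell was HSP90-1 (GRMZM2G024668), at 106 and 75.8 FPKM in the leaf controls and 15.7 and 11.0 FPKM under drought (-2.68 ± 0.25, limma adjusted p = 0.0169). It was not called with either leaf drought library left out, and neither was any other leaf gene. In the ovary 9 of 25 rose and 10 fell, beside 23.6% and 29.5% of all genes tested there.

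Members of single roles covered pigment, sterol, cell wall and oxygen chemistry. The gene crtRB1 (GRMZM2G152135, also BCH2 and HYD3) encodes a beta-carotene hydroxylase of carotenoid synthesis. It was at 10.1 and 3.60 FPKM in the leaf controls, against 19.3 and 26.7 FPKM in the droughted leaves, with ovary values of 15.2 to 20.9 FPKM. The ovary thus overlapped the drought leaf. The leaf difference was 1.73 ± 0.47, and 1.09 without leaf control 2.

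The sterol methyltransferase gene smt1 (GRMZM2G122810, also ESMT1) was at 16.6 and 4.72 FPKM in the leaf controls, at 22.8 and 29.1 FPKM in the drought leaves and at 138 to 275 FPKM in the ovary. HRGP (GRMZM2G168651), a hydroxyproline-rich glycoprotein gene of the cell wall, was at 117 and 20.6 FPKM in the leaf controls, at 118 and 159 FPKM in the drought leaves and at 1475 to 2286 FPKM in the ovary. Hb (GRMZM2G067402, also GLB1), a haemoglobin gene, was at 32.5 and 8.26 FPKM in the leaf controls, at 42.4 and 48.6 FPKM in the drought leaves and at 0.813 to 2.16 FPKM in the ovary. The 3 genes had very different ovary levels, but in each of them leaf control 1 was close to the drought leaves and control 2 was low. Their leaf differences of 1.42 ± 0.57, 1.45 ± 0.84 and 1.40 ± 0.64 were 0.61, 0.23 and 0.47 without control 2. Without control 1 they were 2.23, 2.68 and 2.33. The symbol GLB1 also placed Hb on the list of seed storage markers. The other listed gene tested in the leaf was not called, and 2 of 2 rose in the ovary, where 23.6% of all genes tested rose.

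The gene cda2 (GRMZM2G008216) was at 35.0 and 25.2 FPKM in the leaf controls, against 102 and 153 FPKM in the droughted leaves, with ovary values of 22.9 to 32.6 FPKM. The gene named Rhodopsin (GRMZM2G066197) was at 84.2 and 94.9 FPKM in the leaf controls, against 246 and 230 FPKM in the droughted leaves, with ovary values of 66.4 to 86.7 FPKM. In both, the ovary overlapped the watered leaf and the drought leaves stood apart. The leaf differences were 2.03 ± 0.28 and 1.40 ± 0.14, and the ovary differences 0.29 ± 0.17 and -0.23 ± 0.16. For cda2 the ovary was at 26.6 and 22.9 FPKM in the controls and 28.4 and 32.6 FPKM under drought. Both ovary drought libraries thus stood above both controls for cda2, and for Rhodopsin they stood below.

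Of the 40 lists, 6 held a member and 12 members were on at least 1 list. The other 34 lists, among them abscisic acid, dehydrins, aquaporins, photosynthesis and the NAC, MYB and WRKY factors, held none. The names come from RefSeq, which matched 74 of the 100 identifiers and gave a name to 17, so most members could not have been listed.

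**Figure D3:**
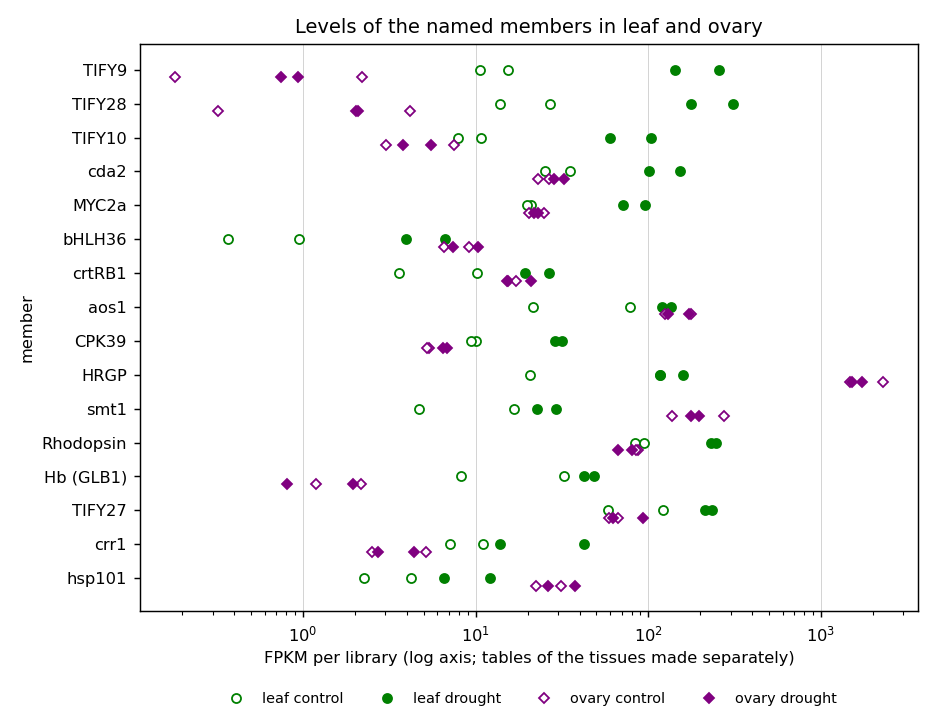
FPKM per library (log axis) of the 16 named members, with CPK39 drawn once, from highest leaf difference at the top. Open symbols are controls and filled symbols drought, circles leaf and diamonds ovary. The ovary diamonds of TIFY9, TIFY28 and Hb lie below all leaf circles, and those of HRGP, smt1 and hsp101 lie above them.

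Across the 100 members the leaf log2 difference ran from 1.26 to 3.87 with a median of 1.57. By the rule both drought leaves lay above both controls in every member, which held for 23.3% of the 19688 genes. The difference was at least 2 in 22 members and at least 3 in 5. In 74 members the lower drought leaf was at least 2-fold above the higher control leaf. The limma fit called 55 of the 100 as higher in the leaf, beside 2.35% of all genes tested, a count that the rule itself raises and from which nothing is read. With the replicate number as a block the fit called 24 members, where 230 of the 22418 genes tested rose. Leaving out 1 library leaves a lone library in a group, so only the leaf differences are given for that setting, further below. The median FPKM of the members was 6.82 in the leaf controls and 24.0 in the drought leaves, where that of the 19688 genes was 12.4 and 12.2.

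The most abundant members in the drought leaf were GRMZM2G447785, GRMZM2G161154 and GRMZM2G037189. GRMZM2G447785 was at 369 and 60.0 FPKM in the leaf controls, at 594 and 679 FPKM in the drought leaves and at 851 to 2069 FPKM in the ovary. GRMZM2G161154 was at 156 and 82.9 FPKM in the leaf controls, at 268 and 623 FPKM in the drought leaves and at 751 to 940 FPKM in the ovary. GRMZM2G037189 was at 45.2 and 76.1 FPKM in the leaf controls, at 250 and 278 FPKM in the drought leaves and at 11.3 to 16.6 FPKM in the ovary. The first 2 were higher in every ovary library than in any leaf library, and the third was lower. The leaf difference of GRMZM2G447785 was 2.08 ± 0.89, and 0.78 without leaf control 2 or 3.38 without leaf control 1.

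**Figure D4:**
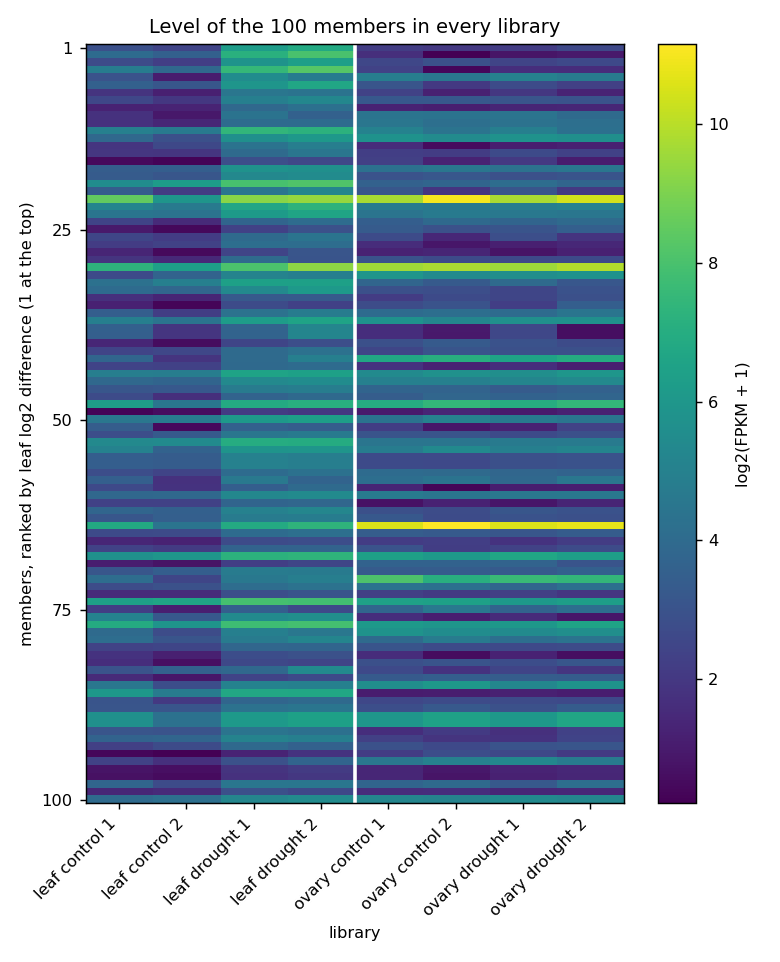
Level of the 100 members as log2(FPKM + 1) in each of the 8 libraries, one row per member in order of leaf difference, with a white line between leaf and ovary. The drought leaf columns are brighter than the control leaf columns in every row, and leaf control 2 is darker than leaf control 1 in 73 rows.

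The leaf controls disagreed more in the members than in other genes. Leaf control 1 was above control 2 in 73 of the 100, where this held for 57.4% of the 19688 genes. It was more than 2-fold above in 37 members, beside 7.11% of the 19688. Drought replicates in the leaf were more than 2-fold apart in 6 members, beside 1.70%. With leaf control 2 left out, the members' median leaf difference was 1.48, with 23 members below 1 and 4 below 0.5. With leaf control 1 left out it was 1.93, with 0 below 1. The widest gap was in GRMZM2G336824, at 9.75 and 0.415 FPKM in the leaf controls and 11.3 and 9.87 FPKM under drought, whose leaf difference of 1.57 ± 0.99 was 0.11 without control 2. Its ovary values were 3.52 and 0.830 FPKM in the controls and 1.36 and 4.22 FPKM under drought. The rule used these same leaf values, and the part of control 2 in the choice of members was not tested.

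**Figure D5:**
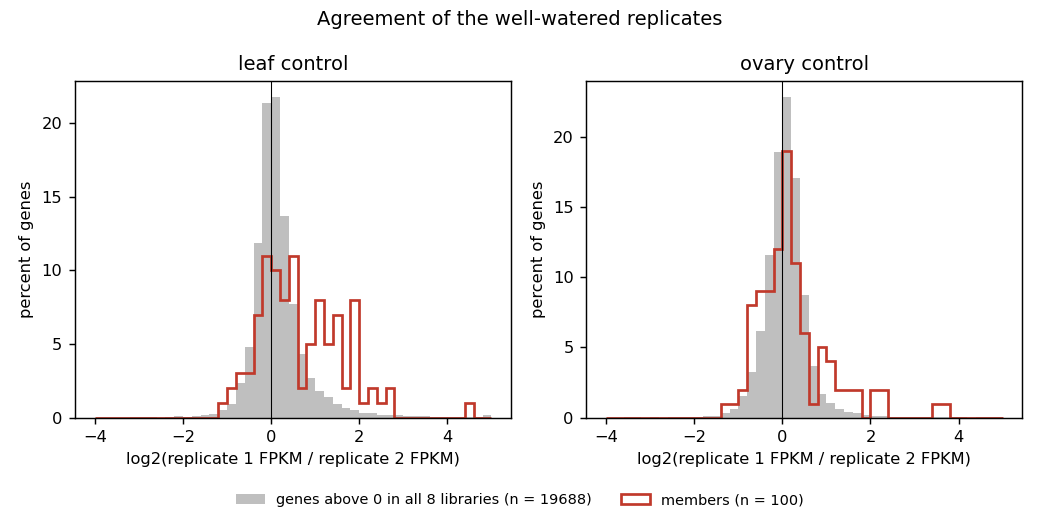
Log2 ratio of replicate 1 to replicate 2 FPKM in the leaf controls (left) and ovary controls (right), as percent of genes, for the 19688 genes above 0 in all 8 libraries (grey) and the 100 members (red). Values beyond the axis are drawn in its outermost bars. The red outline holds a larger share than the grey at the right in both panels, with 37 members beyond a 2-fold excess of control 1 in the leaf and 16 in the ovary.

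In the ovary the members' differences ran from -0.30 to 0.30 with a median of 0.01, 51 above 0 and 49 below, and 31 within 0.1 of 0. The drought and control libraries overlapped in 78 members, drought was above both controls in 12 and below both in 10. Over the 19688 genes these shares were 38.1% and 41.2%. Groups failed to overlap in 34.8% of all 5254 genes within the same ovary limits and in 79.4% of the 19688. The limma fit called 0 members in the ovary, where it called 53.1% of all ovary genes at the same adjusted threshold. This follows from the rule.

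A small average did not always mean that replicates agreed. Ovary controls were more than 2-fold apart in 18 members, beside 4.63% of the 19688 genes, and ovary drought libraries in 11, beside 3.86%. After TIFY28 and TIFY9 the widest gap was in GRMZM2G099867, at 2.15 and 0.982 FPKM in the ovary controls and 4.89 and 0.547 FPKM under drought. With 1 ovary library left out, between 59 (without control 1) and 76 (without drought 2) members stayed within -0.3 and 0.3. In 25 members the ovary difference stayed there whichever of the 4 libraries was left out, MYC2a among them. In 30 members the replicates of all 4 groups were within 1.5-fold of each other.

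GRMZM2G150172 and GRMZM2G129482, chosen after their values were seen, were members with both properties. GRMZM2G150172 was at 9.87 and 10.2 FPKM in the leaf controls, at 54.7 and 49.2 FPKM in the drought leaves and at 18.7 to 21.5 FPKM in the ovary. GRMZM2G129482 was at 13.7 and 13.9 FPKM in the leaf controls, at 37.7 and 43.3 FPKM in the drought leaves and at 22 to 24.5 FPKM in the ovary. In both, all ovary libraries lay between the watered and the drought leaf.

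The ovary level stood in every possible relation to the leaf. All 4 ovary libraries were below all leaf libraries in 20 members and above them in 15. In 20 they lay between the leaf conditions, and in 45 they overlapped at least 1 of them. The tables of the tissues were normalized separately, so these orders are descriptions without a test. The median FPKM of the members was 7.61 in the ovary controls and 7.36 in the drought ovaries.

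Some members share a gene. GRMZM2G171254 and GRMZM2G470882 had identical values. GRMZM2G099867 and GRMZM2G031102 agreed within 1.02-fold, and GRMZM2G304474 and GRMZM2G436020 were up to 2.03-fold apart. The members of each of these pairs, like the CPK39 pair, share at least 1 RefSeq gene. In 9 members the leaf control mean was under 1 FPKM, and in 15 at least 1 ovary library was.

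At the thresholds, the members ranked 99 and 100, GRMZM2G100114 and GRMZM2G357595, had leaf differences of 1.27 and 1.26, and the next genes, AC218035.3_FG004 and GRMZM2G047479, had 1.26 and 1.23. At the lower ovary limit GRMZM2G026654 (-0.30) and GRMZM2G462750 (-0.29) were in. Just outside were GRMZM2G019567 (-0.30) and rbohD (GRMZM2G441541, -0.32), an NADPH oxidase gene of the oxidative burst, which was at 19.7 and 21.5 FPKM in the leaf controls, against 109 and 109 FPKM in the droughted leaves. At the upper limit GRMZM5G896337 (0.29) and GRMZM2G029087 (0.30) were in, and GRMZM2G465430 and GRMZM2G166944 (both 0.31) were out. GRMZM2G465430 maps to the same RefSeq gene as GRMZM2G029087. The leaf separation was narrowest for HRGP and GRMZM2G336824 (lower drought minus higher control 0.01 and 0.02 on the log2 scale), while GRMZM2G018099 (-0.25) and GRMZM2G130528 (-0.05) failed it.

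The members are a slice of a wider group. At or above the lowest member's leaf difference, 571 genes had both leaf drought libraries above both controls. Of these, 240 had an ovary difference below -0.3, 231 above 0.3 and 100 in between.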

How the data were processed

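RNA-seq was done on 8 libraries of B73 maize, 4 per tissue. Each tissue has its own table of FPKM values as the authors deposited it. The submitters' processing notes name TopHat 1.2.0, Cufflinks 1.0.2 and CASAVA 1.8 with no role for any of them. The genome build, the annotation, strand use in counting and further scaling are not given in the sources. Read counts are not part of these tables, so depth is unknown and counting error cannot be put into an interval. Steps in the lowest values were compared through the most frequent ratio to control 1 among genes under 1 FPKM. Only 20 to 57 genes shared that ratio, of 1835 to 2982 such genes. By it the drought libraries matched control 1 in step size (ratios 0.976 to 1.05). Control 2 of each tissue differed from control 1, with the direction unclear.

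Groups and replicate numbers come from the sample titles. Each tissue was fitted in its own table with limma 3.58.1 (lmFit, eBayes with trend) in R 4.3.3 on log2(FPKM + 1). Genes entered a fit if their mean there was 1 FPKM or more. Calls used a Benjamini-Hochberg adjusted p under 0.05. Fold changes on this scale understate the change of low genes. Values after ± are standard errors of that fit. The selection and counts were done in Python 3.11.15 with pandas 2.3.3.

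The members and the 40 gene lists were chosen with earlier results of these data known. Lists are patterns matched to RefSeq symbols and synonyms (assembly Zm-B73-REFERENCE-NAM-5.0), so they cover named genes only. The KNOX genes and the calcium genes without the reductases were taken from their lists after their values were seen. An identifier that matched more than 1 RefSeq gene got no name. Named are the 10 members with the highest leaf difference, every member with a name, the 2 genes on either side of each threshold, the 3 most abundant members and the 3 with the largest ovary replicate gap. Up to 2 called non-members with the largest leaf change are named for each list that holds a member. Genes of lists without a member are not named. Alternatives were pseudocounts of 0.1 and 0.01, filters, upper quartile and quantile scaling, a 2-fold minimum, eBayes run without trend, a replicate block, other ovary limits and ordering, and each library left out. The promoter motif search that was planned was not run, and no sequences are shown.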

Additional observations from a re-analysis of the deposited data

Results flagged for a closer look

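In 6 of the 48 named genes both drought libraries lay on one side of both controls in the leaf and on the other side in the ovary. The share of all genes with this arrangement is not given here. The difference between the tissues was not tested for them, and for the 5 members the leaf direction was fixed by the rule. GRMZM2G026654 and GRMZM2G462750 were named for the lowest ovary differences of the set, so their ovary direction followed from that choice. GRMZM2G112284 had log2 differences of 2.85 in the leaf and -0.17 in the ovary. For Rhodopsin (GRMZM2G066197) they were 1.40 and -0.23. For GRMZM2G100114 they were 1.27 and -0.22, and the ovary difference was 0.02 after quantile normalization. For GRMZM2G026654 they were 1.41 and -0.30, and for GRMZM2G462750 1.86 and -0.29. In the ovary 34.8% of all genes within the same limits had groups that did not overlap, with both directions counted. None of these 5 ovary differences was called, where 53.1% of all ovary genes tested were.

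HSP90-1 (GRMZM2G024668), a chaperone gene that is no member, went the other way. Its leaf difference was -2.68 (limma adjusted p = 0.0169) and its ovary difference 0.49 (limma adjusted p = 0.0370), from 35.7 and 39.9 FPKM to 56.0 and 51.1 FPKM. The ovary call was lost with any ovary library left out (adjusted p 0.0748 to 0.164).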

How the results depend on the processing

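With the replicate number as a block, 230 leaf genes rose and 121 fell, against 527 and 203 without it, and 5862 and 7283 in the ovary against 5614 and 7004. Same-numbered libraries deviated together with a correlation of -0.175 in the leaf and 0.112 in the ovary, and no label says that a number marks a shared plant or day. With the numbers crossed, chosen after seeing the data, 425 leaf genes rose and 186 fell, and 5237 and 6549 in the ovary. A 2-fold minimum left 3254 rising and 4668 falling ovary genes. With each library left out, leaf calls ranged from 0 to 1539 rising and 0 to 492 falling, and ovary calls from 2209 to 3796 rising and 3613 to 4669 falling. The 0 came from leaving out either leaf drought library. There 1402 and 1167 genes rose and 1114 and 617 fell at an unadjusted limma p under 0.05. Leaving out leaf control 1 gave 1539 and leaf control 2 gave 239 rising genes. The lone library left in a group is assumed to vary like the other.

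The rule chose 61 of the 100 members again with a mean of at least 5 FPKM, 62 with ovary limits of 0.2 and 59 to 92 with each library left out, the lowest without ovary control 1. The members' median leaf difference ranged from 1.48 to 1.93 and their median ovary difference from -0.04 to 0.03 with each library left out. After quantile normalization the ovary median was 0.16. Of the other results, 2 jasmonate genes outside the set rose in the leaf, and this was 14 without leaf control 1, 4 with crossed numbers, and 0 with the block, without leaf control 2 or without either drought library. With the block, 19 of the 39 jasmonate genes outside the set were higher at an unadjusted limma p under 0.05. Among all genes tested, 2035 of 22418 were. In the ovary the difference of TIFY28 was 1.21 without control 1 and -0.76 without control 2, and that of TIFY9 was -0.80 without control 2. The causes were not tested. Unknown depth and 2 libraries a group limit all of these values.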
